A study of Mus musculus with 20 samples.

Results

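The genes described here are those of the proteasome, the protease that degrades proteins tagged with ubiquitin, in whole lung of mice that breathed cigarette smoke or room air. They were chosen by name: every gene whose platform symbol begins with Psma, Psmb, Psmc, Psmd or Psme and that had a probe at a detection p under 0.05 on at least 3 of the 20 arrays. The annotation held 42 such genes with 63 probes, and 40 genes, with 56 probes, passed the detection threshold out of 12719 features tested. The single probes of Psma1 and Psma6, which encode core subunits, were detected on 0 of 20 arrays, so these genes were not tested. Of the 40 genes, 38 encode subunits, activators or chaperones of the proteasome. The other two, Psmc3ip and Psme3ip1, match the name rule only, since their products are named for binding a subunit or an activator.

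All mice were male AKR/J, an inbred strain. The labels give an age of 6 to 8 weeks, and the age when the lungs were taken is not reported here. The CS_Los group (3 arrays) breathed cigarette smoke and drank losartan, which blocks the angiotensin receptor Agtr1, at 0.6 g/L, and the CS group (7 arrays) breathed smoke without the drug. The RA_Los group (3 arrays) had room air with losartan, and the RA group (7 arrays) had room air alone. Smoke came from reference cigarettes, 2 h a day and 5 days a week. The labels give 6 to 7 weeks of exposure in one field and 2 months in another. Batch 1 held 3 arrays of each group, and batch 2 held 4 CS and 4 RA arrays, numbered 4 to 7. The labels do not state that each sample was a separate animal, so the p-values below reflect only how much these samples vary, which may be technical.

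The proteasome is built from a barrel-shaped core particle and regulatory caps. The core holds rings of alpha subunits (Psma genes), which form the gate, and rings of beta subunits (Psmb genes), of which Psmb5, Psmb6 and Psmb7 carry the proteolytic sites. The cap has a base of ATPases (Psmc genes) that unfold substrates, a set of Psmd subunits in the base that bind ubiquitin, and a lid of Psmd subunits that removes it. Interferon-gamma induces Psmb8, Psmb9 and Psmb10, which replace Psmb5, Psmb6 and Psmb7 to form the immunoproteasome, and the activator PA28, encoded by Psme1 and Psme2. Immune cells carry the immunoproteasome constitutively, and its cleavage products are loaded on MHC class I molecules through the peptide transporter of Tap1 and Tap2.

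Of the 40 genes, 39 were detected on all 20 arrays, and Psmd2 was not detected on 1 array of batch 1. The median probe signal before normalization was 87.4 to 100.4 in batch 2 and 57.2 to 72.3 in batch 1, and the number of arrays limits the precision. The 5 lung epithelial markers (Sftpc, Sftpb, Scgb1a1, Ager and Aqp5) were detected on all CS and RA arrays, and 0 of them passed the test between these groups. Of 7 pan-leukocyte markers, 3 were called higher in CS, and the mean of all 7 stood 0.309 to 0.619 above the RA mean of the batch on CS arrays, against -0.181 to 0.261 on RA arrays. The mean of 4 heart muscle markers ranged from -1.491 to 2.066 on CS arrays and from -1.628 to 1.448 on RA arrays on the same log2 scale, and its part in the results was not tested. Since whole lung was measured, fewer cells of a type and less RNA per cell cannot be told apart.

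One array stood apart from its group for the inducible genes. RA 7 was the highest of the 4 RA arrays of batch 2 for 5 of 5 immunoproteasome and PA28 genes and for 15 of 22 tested genes of a list of MHC class I and interferon-gamma genes, against 26.7% of all features. It was also the highest for 7 of 12 core genes (4 of 5 alpha subunits), 6 of 11 assembly and accessory genes and 5 of 7 pan-leukocyte markers. The smoke changes of the inducible genes are therefore given with and without RA 7. Both losartan groups spread widely in the mean of the heat shock list, which stood at -1.586, 0.265 and -0.683 on CS_Los 1, 2 and 3 and at 0.433, -0.506 and -1.112 on RA_Los 1, 2 and 3, as log2 differences from the RA mean of the batch.

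Promoter windows of 300 bases, most of each lying before the start of transcription, were searched in RefSeq (GRCm38.p6, the C57BL/6J reference, not AKR/J), with 35 of the 40 genes matched through 38 windows. The letters TGACNNNGC, at the core of sites bound by Nfe2l1, which raises proteasome genes when the protease is inhibited, and by the antioxidant factor Nfe2l2, were found on either strand in 6 of 38 proteasome windows (15.8%) and in 12.4% of 32851 windows of all genes. The palindrome GAANNTTC, at the core of the heat shock element, was in 2 of 38 proteasome windows (5.26%), in 9 of 15 windows of the heat shock list (60%) and in 7.86% of all windows. The run GAAA, any 2 bases and GAAA, the core of the interferon-stimulated response element, was in 4 of 38 proteasome windows (10.5%) and in 3.44% of all windows. Of the 6 windows of immunoproteasome and PA28 genes, 1 held it, that of Psme1, after the start of transcription. The letters TTCNNNGAA of the gamma-activated site were in 2 of 38 (5.26%) against 8.3% of all, and CCAAT was in 13 of 38 (34.2%) against 37.4% of all. Overlapping matches of different motifs were each counted. The stretches below, written 5′ to 3′ on the strand of the gene, show where such letters lie in the catalytic genes that the results follow, with the heat shock gene Hspa1a for contrast, and the match in capitals.
Psmb5, chr14:54617996-54618082, minus strand, TGACNNNGC: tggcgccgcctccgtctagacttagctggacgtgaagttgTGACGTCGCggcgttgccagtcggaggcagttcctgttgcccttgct
Psmb6, chr11:70525308-70525356, plus strand, TGACNNNGC: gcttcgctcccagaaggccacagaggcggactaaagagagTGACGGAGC
Psmb8, chr17:34198058-34198146, plus strand, TTCNNNGAA: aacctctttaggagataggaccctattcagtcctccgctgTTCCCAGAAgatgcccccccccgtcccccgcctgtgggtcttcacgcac
Psmb9, chr17:34187477-34187564, minus strand, GAANNTTC: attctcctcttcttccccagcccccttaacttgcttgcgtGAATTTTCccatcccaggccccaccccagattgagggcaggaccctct
Hspa1a, chr17:34972213-34972300, minus strand, GAANNTTC: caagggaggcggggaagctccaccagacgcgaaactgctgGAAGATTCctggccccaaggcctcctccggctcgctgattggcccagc
The match of Psmb5 begins 47 bases and that of Psmb6 begins 9 bases before the start of transcription. Psmb9 and Tap1 lie head to head on chromosome 17 and share the region between them, so the match shown for Psmb9 is also read in the window of Tap1, on the other strand. These matches are letters in a reference window and were not tested as binding sites.

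Smoke was compared with room air over 7 CS and 7 RA arrays with batch as a term. Of the 40 proteasome genes, 0 passed a Benjamini-Hochberg adjusted p under 0.05 in limma, where 12.8% of all features passed (6.09% higher and 6.73% lower in CS). At an unadjusted p under 0.05 there were 7 of 40 genes, 6 of them higher in CS, against 26.8% of all features. The count of called genes was 0 to 2 over the other settings tried. The 95% intervals of all 40 log2 changes lay within 1.5-fold in either direction, and 11179 of 12719 features had intervals as narrow and as close to 0. The measured differences of the proteasome genes were thus small, and a change of 1.5-fold or more lay outside the interval of each.

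**Figure D1:**
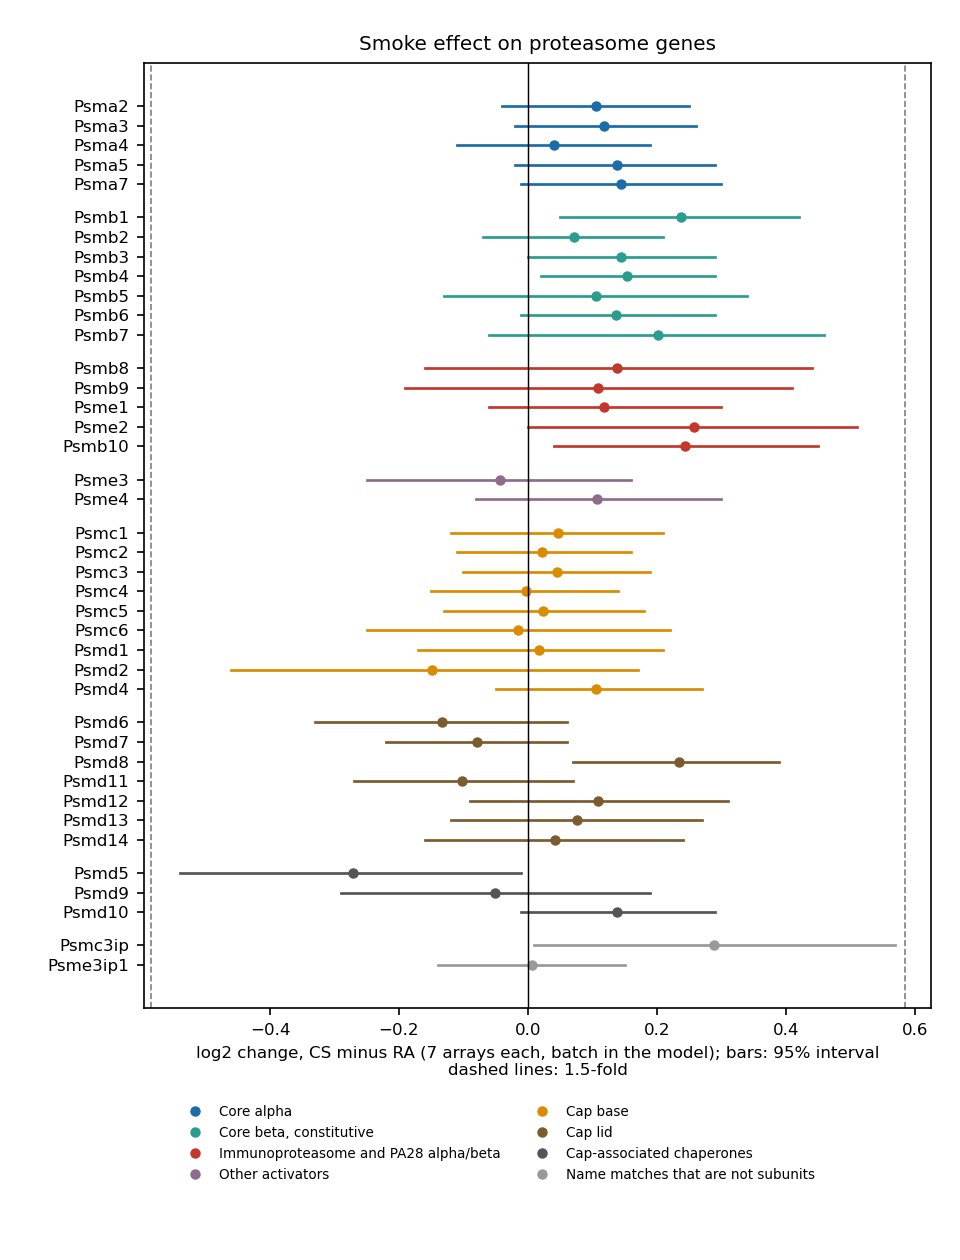
Log2 change of each proteasome gene in CS against RA (7 arrays each, batch in the model), with points for the change, bars for its 95% interval, colours for the class of subunit and dashed lines at 1.5-fold. All 40 bars lie between the dashed lines, and the 12 core subunits and the 5 immunoproteasome and PA28 genes all have points above 0.

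The core subunits had small changes of one sign. All 12 tested core genes had a log2 change above 0 in CS against RA, from 0.04 (Psma4) to 0.237 (Psmb1), with a median of 0.137, where the median of all features was -0.005 and 49.1% of them were above 0. Within batch 2 the median was 0.105, within batch 1 it was 0.14, and 11 of the 12 genes were above 0 in both, against 34.2% of all features. The genes of one complex are measured on the same arrays and are not independent of each other. With each array centred on its 75th percentile in place of quantile normalization, the core median was 0.064, with Psma3 at 0.00 and Psma4 at -0.02.

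By array, the mean of the 12 core genes, as a log2 difference from the RA mean of the batch, was lowest at 0.033, median 0.109 and highest at 0.245 over CS arrays. Over RA arrays it was lowest at -0.111, median -0.009 and highest at 0.104. The groups overlapped, through CS 1, CS 5 and CS 6, which lay below RA 7.

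Among the alpha subunits, which gate the barrel, the log2 changes ran from 0.04 to 0.144 with standard errors of 0.0674 to 0.0728, and the smallest adjusted p was 0.217 (limma, Benjamini-Hochberg). Psma7 was the highest of them, at 0.144 ± 0.0726 (SE). Its CS arrays of batch 1 all lay above the RA arrays of that batch, and those of batch 2 overlapped.

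Of the structural beta subunits, Psmb1 had the largest change of the core. Its log2 signal on CS arrays was lowest at 10.35, median 10.73 and highest at 10.78, and on RA arrays lowest at 9.92, median 10.34 and highest at 10.73. In batch 1 the lowest CS array, at 10.35, was just above the highest RA array, at 10.34, and the CS arrays overlapped the RA arrays in batch 2, where they spanned 10.73 to 10.78 and the RA arrays 10.2 to 10.73. The log2 change was 0.237 ± 0.0864 (SE) with an adjusted p of 0.0854 (limma, Benjamini-Hochberg). Without each array in turn it was 0.18 to 0.28, and only the fit without RA 3 passed, at 0.28 with an adjusted p of 0.0488. RA 3 was the highest RA array of batch 1 for this gene, so leaving it out lowers the RA mean there. Psmb4, another structural beta subunit, had a log2 change of 0.154 ± 0.0652 with an adjusted p of 0.137. Psmb3 had a log2 change of 0.144 ± 0.0689 and Psmb2 one of 0.072 ± 0.0667. None of the 4 passed the test over all arrays.

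The 3 constitutive catalytic subunits did not pass the test. Psmb5 carries the chymotrypsin-like site. Its log2 signal was lowest at 6.36, median 8.04 and highest at 8.18 on CS arrays, and lowest at 6.36, median 7.79 and highest at 8.23 on RA arrays. The batches differed by 1.43 in this gene, and within each batch the groups overlapped. The log2 change with batch in the model was 0.105 ± 0.109 (SE, 7 against 7 arrays, adjusted p = 0.588 in limma), and 0.02 to 0.16 without each array in turn, lowest without CS 2. Psmb6, with the caspase-like site, had a log2 change of 0.136 ± 0.0714 (adjusted p = 0.236 in limma). Psmb7, with the trypsin-like site, had a log2 change of 0.202 ± 0.123 (adjusted p = 0.317 in limma), and 0.13 to 0.3 without each array in turn. One of its 2 other kept probes gave -0.01.

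The inducible genes had changes of one sign too, with wider errors. All 5 immunoproteasome and PA28 genes had a log2 change above 0 in CS against RA, with a median of 0.138 and standard errors of 0.0851 to 0.143, and 0 of 5 passed the test. The median was 0.133 within batch 2 and 0.234 within batch 1, with 5 of 5 genes above 0 in each. Without RA 7 the median was 0.264, and Psmb10 then passed the test, and without RA 5 the median was 0.091. RA 7 was singled out by these same genes, and leaving out their highest RA array of batch 2 lowers the RA mean there. The fits without RA 7 show how far the changes rest on that array and are no separate test of them.

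Psmb10, which replaces Psmb7 in the immunoproteasome, had log2 signals of 10.78, 10.98, 10.99 and 11.18 on the CS arrays of batch 2, and of 10.5, 10.64, 10.65 and 11.13 on the RA arrays. In batch 1 it had 10.13, 10.28 and 10.32 on CS arrays and 9.88, 9.99 and 10.15 on RA arrays. The groups overlapped in each batch through 1 RA array, RA 7 in batch 2 and RA 3 in batch 1. The log2 change was 0.244 ± 0.0962 (SE) with an adjusted p of 0.11 (limma, Benjamini-Hochberg) over all arrays. Without RA 7 it was 0.31 with an adjusted p of 0.0193, and it was 0.2 to 0.31 without each array in turn.

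Psmb8, which replaces Psmb5, had log2 signals of 7.78, 7.8, 7.92 and 7.94 on the CS arrays of batch 2. On the RA arrays of that batch it had 7.31, 7.5, 7.96 and 8.47, so the RA arrays lay on both sides of the CS arrays. In batch 1 it had 6.33, 6.49 and 6.52 on CS arrays and 5.94, 6.26 and 6.36 on RA arrays, and 1 array of each overlapped. The log2 change was 0.138 ± 0.141 (SE) with an adjusted p of 0.582 (limma, Benjamini-Hochberg), and without RA 7 it was 0.26 with an adjusted p of 0.108. Without RA 5, the lowest RA array of batch 2, it was 0.06.

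Psmb9, which replaces Psmb6, had log2 signals of 8.79, 8.95, 9.06 and 9.11 on the CS arrays of batch 2 and of 8.59, 8.65, 8.87 and 9.65 on the RA arrays. In batch 1 the values were 8.84, 9.21 and 9.39 on CS arrays and 8.79, 8.96 and 9.07 on RA arrays. The groups overlapped in both batches, and RA 7 was the highest of all 14 arrays. The log2 change was 0.108 ± 0.143 (SE) with an adjusted p of 0.682 (limma, Benjamini-Hochberg), and without RA 7 it was 0.24 with an adjusted p of 0.12. Without RA 5 or without CS 3 it was 0.05.

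The subunits of PA28, the ring that opens the core without ubiquitin, did not pass the test either. Psme2 had the highest log2 change of the 38 subunit genes, 0.257 ± 0.121 (SE, adjusted p = 0.183 in limma). Its CS and RA arrays overlapped in both batches. The change was 0.32 without RA 7 and 0.18 to 0.33 without each array in turn. Psme1 had a log2 change of 0.118 ± 0.0851 (adjusted p = 0.409 in limma) by the probe with the higher mean signal, 0.15 without RA 7 and 0.07 without CS 2. Its other kept probe gave 0.30, which passed at an adjusted p of 0.0497 when all kept probes were tested. Of the other activators, Psme4 had a log2 change of 0.107 ± 0.0888 and the nuclear activator Psme3 one of -0.044 ± 0.0952.

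**Figure D2:**
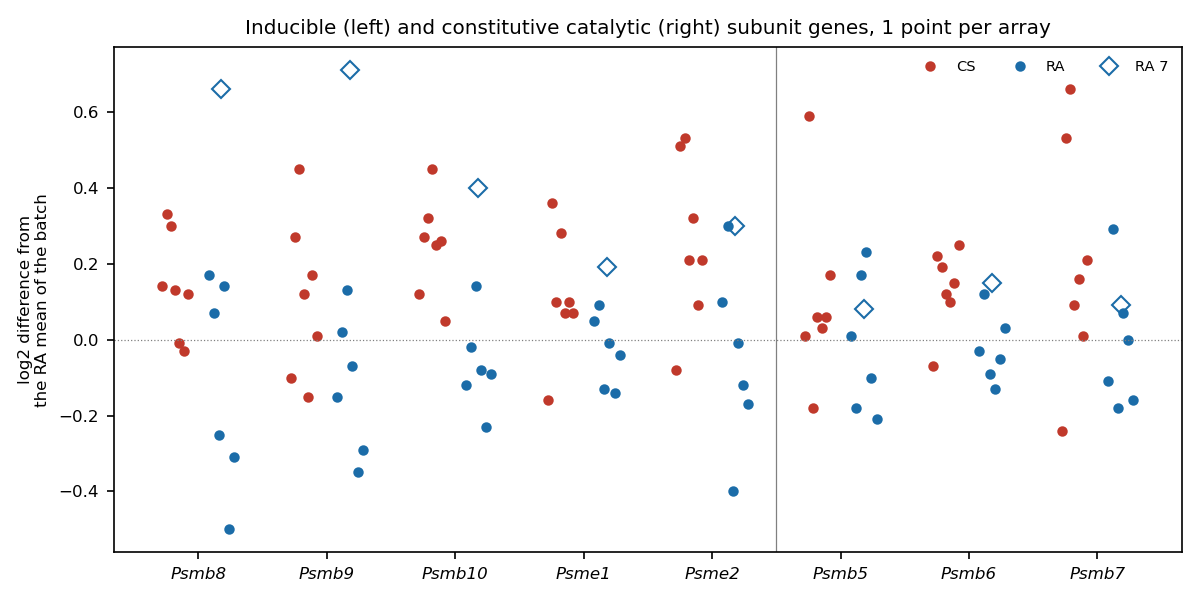
Log2 difference of each CS array (red) and RA array (blue) from the RA mean of its batch for the 5 inducible genes and the 3 constitutive catalytic subunits, with 1 point per array and RA 7 as an open diamond. RA 7 stands above every CS array for Psmb8 and Psmb9, at 0.66 and 0.71, and lies among the CS arrays for Psmb5, Psmb6 and Psmb7.

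On RA 7 the inducible genes stood above the RA mean of batch 2 by 0.66 for Psmb8, 0.71 for Psmb9, 0.40 for Psmb10, 0.19 for Psme1 and 0.30 for Psme2. Tap1 was 0.75 above that mean on the same array. The mean of the MHC class I and interferon-gamma list was 0.38 above it, and that of the pan-leukocyte list 0.212. The same array stood 0.08, 0.15 and 0.09 above it for Psmb5, Psmb6 and Psmb7. What set this array apart was not tested.

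Interferon-gamma also induces MHC class I genes and their peptide transporter. Of 22 tested MHC class I and interferon-gamma genes, 1 passed the test in CS against RA, where 12.8% of all features passed. The median log2 change was -0.016, with 9 of 22 above 0. Unlike those of the inducible genes, the values of this list are given only with RA 7, where its mean stood 0.38 above the RA mean of the batch. The one that passed was Tap2, which rose by 0.36 ± 0.102 (SE, adjusted p = 0.0304 in limma). Its CS arrays were all above the RA arrays in batch 1 and overlapped them in batch 2. Tap1 had a log2 change of 0.09 ± 0.147 (adjusted p = 0.735), and the interferon response factor Irf1 one of -0.01 ± 0.0901 (adjusted p = 0.939). Over the same arrays 3 of 7 pan-leukocyte markers were called higher, Coro1a by 0.81, Cd52 by 0.74 and Cd53 by 0.39. All 7 had a log2 change above 0. Of the neutrophil markers, 5 of 5 were called higher. Among other blood cell markers, 2 of 5 T and NK cell genes and 2 of 4 B cell genes were called higher, with 5 and 3 above 0. Of 3 tested macrophage genes, 0 were called and 1 was above 0, with a median of -0.056. The erythroid genes, 3 of 3, were called lower, with a median log2 change of -1.692. Of all features, 6.09% were called higher and 6.73% lower. Ptprc, the common leukocyte antigen, had a log2 change of 0.23 ± 0.0963 (adjusted p = 0.127). All 7 pan-leukocyte markers were above background on at least 5 of 7 RA arrays, and the part of these cell markers in the changes of the inducible genes was not tested.

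**Figure D3:**
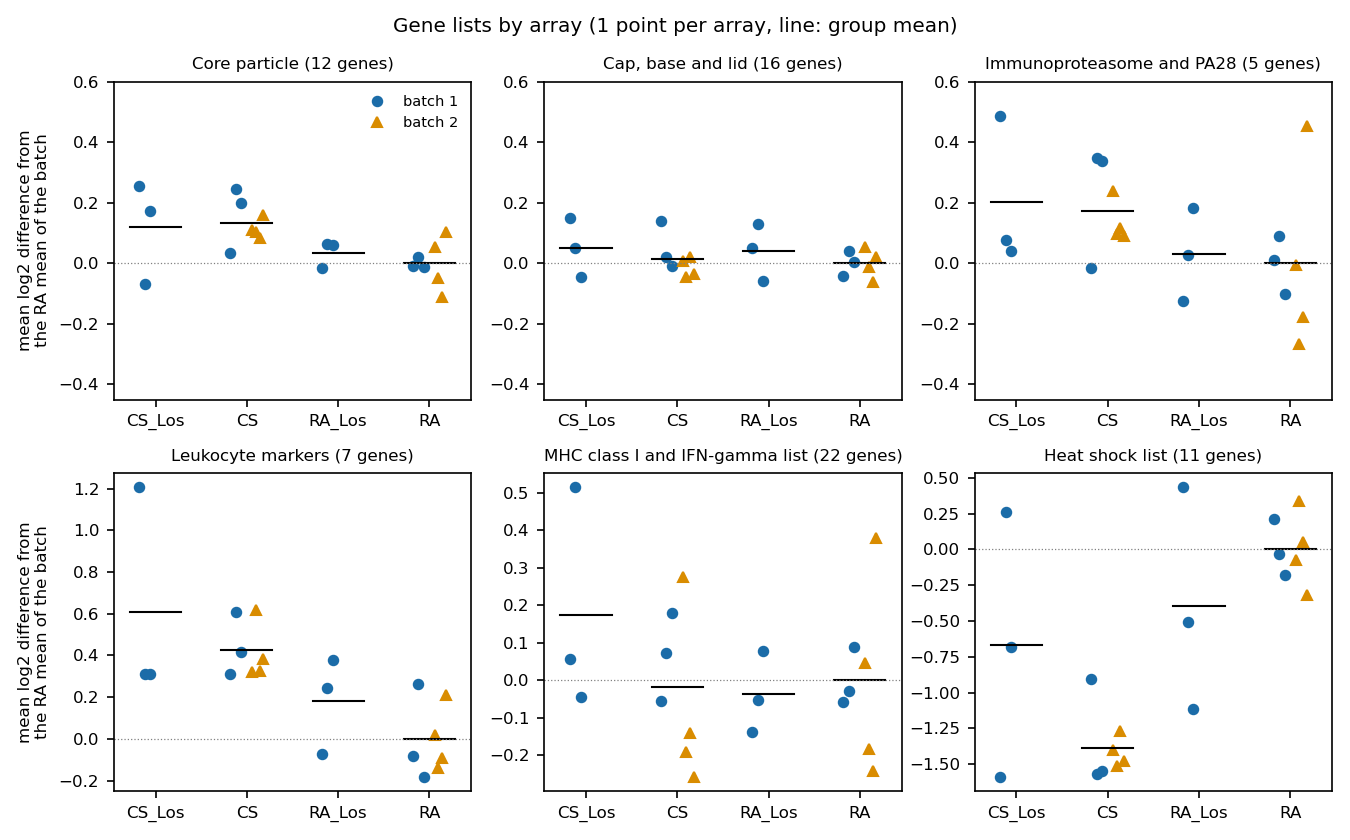
Mean log2 difference from the RA mean of the batch for 6 gene lists, with 1 point per array, circles for batch 1, triangles for batch 2 and a line at each group's mean. The core particle lies between 0.033 and 0.245 on CS arrays and between -0.111 and 0.104 on RA arrays, while the cap lies around 0 in both groups and the heat shock list lies below -0.9 on all CS arrays.

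The cap genes, by contrast with the core, had changes on both sides of 0. Of 16 cap genes, 10 had a log2 change above 0, the median was 0.023 and the range was -0.149 to 0.234. The median was -0.003 within batch 2 and 0.068 within batch 1, and 6 of 16 genes were above 0 in both. The sign of the cap median depended on the scaling, at -0.014 with centring on the 75th percentile and -0.004 with the authors' log2 values. The core mean minus the cap mean ran from -0.107 to 0.225 on CS arrays (median 0.147) and from -0.049 to 0.082 on RA arrays (median -0.016). The groups overlapped, since CS 1, at -0.107, was below all RA arrays and CS 6, at 0.06, below RA 7. The difference between core and cap was not tested. The 2 classes also differed between the batches, with medians of 0.409 (core) and 0.01 (cap) in batch 2 against batch 1.

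Within the base, the 6 ATPases Psmc1 to Psmc6 had log2 changes between -0.016 (Psmc6) and 0.047 (Psmc1). Their standard errors were 0.0638 to 0.111, larger than each of these changes. The scaffold Psmd1 had a log2 change of 0.017 ± 0.0907, its partner Psmd2 one of -0.149 ± 0.149, and the ubiquitin receptor Psmd4 one of 0.106 ± 0.0758. The smallest adjusted p of the base genes was 0.407 (limma, Benjamini-Hochberg).

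Within the lid, Psmd8 had the smallest p of all 40 proteasome genes. Its log2 signal on the CS arrays of batch 2 was 10.56, 10.6, 10.64 and 10.71, and on the RA arrays 10.16, 10.37, 10.51 and 10.53. In batch 1 it was 9.69, 9.8 and 10.03 on CS arrays and 9.55, 9.59 and 9.67 on RA arrays. The groups did not overlap in either batch, with 9.69 and 9.67 the closest values in batch 1. Psmd8 was 1 of 40 genes with this pattern, and 5.46% of all features had it. In single batches, arrays did not overlap for 13.3% of features in batch 2 and 20% in batch 1.

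The log2 change of Psmd8 was 0.234 ± 0.0759 (SE, 95% interval 0.07 to 0.39), a fold of 1.18, with an adjusted p of 0.0533 (limma, Benjamini-Hochberg). It was thus just outside the threshold. Under 6 of 16 other settings and without RA 7 or CS 3 it was inside it, with adjusted p of 0.0292 to 0.0459 in limma. In the other 22 refits it stayed outside, with adjusted p up to 0.752 in limma. The size of the change was 0.19 to 0.26 throughout. Of the other lid genes, the deubiquitinase Psmd14 had a log2 change of 0.042 ± 0.0945, Psmd12 one of 0.108 ± 0.0941 and Psmd13 one of 0.076 ± 0.0923, while Psmd6, Psmd7 and Psmd11 were at -0.134, -0.079 and -0.103. None of these passed, and the smallest adjusted p among them was 0.371.

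The chaperones that help the base assemble had a median log2 change of -0.051 over 3 genes. Psmd5 had the lowest log2 change of all, -0.272 ± 0.124 (SE, adjusted p = 0.17 in limma). In batch 1 its log2 signal was 5.72, 5.95 and 6.38 on CS arrays and 6.25, 6.66 and 6.74 on RA arrays. In batch 2 it was 6.54, 6.55, 6.55 and 6.94 on CS arrays and 6.58, 6.59, 6.84 and 6.88 on RA arrays. The groups overlapped in both batches, and the difference was -0.08 within batch 2 and -0.53 within batch 1. Psmd9 had a log2 change of -0.051 ± 0.114 and Psmd10 one of 0.138 ± 0.07. Psmc3ip, a meiotic recombination factor and no subunit, had a log2 change of 0.289 ± 0.132 (adjusted p = 0.171), and Psme3ip1 one of 0.007 ± 0.0687.

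Genes that supply or regulate the proteasome were read against the same 12.8% of all features called. Of 11 tested assembly, inhibitor and accessory genes, 1 was called lower in CS and 0 higher, with a median of -0.162. It was Zfand2a, a heat-inducible protein that associates with the proteasome, which fell by 0.40 on the log2 scale (SE 0.0893, adjusted p = 0.00795 in limma). Pomp, the maturation factor of the core, had a log2 change of 0.09 ± 0.0761 (adjusted p = 0.504). Of 8 tested genes of ubiquitin supply and shuttling, 2 were called lower: the shuttle Ubqln4 fell by 0.42 and the co-chaperone Bag3, which the heat shock list also holds, by 0.45.

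Of 12 tested regulators of proteasome genes, 2 were called lower, the small Maf proteins Mafg, which fell by 0.33, and Mafk, which fell by 0.35. The list was mixed, with a median of -0.19, 5 of 12 genes above 0 and the highest at 0.261. At an unadjusted p under 0.05 in limma there were 8 of 12, 3 of them higher in CS, against 26.8% of all features. Small Maf proteins are known as partners of Nfe2l1 and Nfe2l2, and no binding was measured here. Nfe2l1 itself had a log2 change of -0.21 ± 0.0696 (adjusted p = 0.0622). Nfe2l2 had a log2 change of -0.27 ± 0.0929 (adjusted p = 0.0679), and neither passed. All 11 tested genes of the heat shock list fell in CS, with a median log2 change of -0.865 against 0.105 for the 38 subunit genes. Hspa1a fell by 4.24 on the log2 scale (SE 0.358, adjusted p = 2.97e-06 in limma). Its log2 signal was lowest at 5.77, median 6.43 and highest at 7.92 on CS arrays, and lowest at 9.88, median 10.79 and highest at 12 on RA arrays, with no overlap.

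The effect of losartan on these genes was read in batch 1, where all 4 groups of 3 arrays shared one estimate of the spread. In CS_Los against CS, 0 of 40 proteasome genes passed in limma, 0 of 40 had an unadjusted p under 0.05 (5.94% of all features), and 0% of all features were called. In RA_Los against RA, 0 of 40 passed and 2 of 40 had an unadjusted p under 0.05 (4.76% of all features), with 0.00786% of all features called. In CS_Los against RA_Los, 0 of 40 passed and 0 of 40 had an unadjusted p under 0.05 (5.35% of all features), with 0% of all features called. These counts of called genes were also 0 without each array in turn. The standard errors were 0.13 to 0.316, and the 95% interval lay within 1.5-fold for 26, 29 and 25 of the 40 genes in these comparisons, so a change of that size was not detectable or excluded for the rest.

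The core mean was at 0.256, -0.067 and 0.174 on CS_Los 1, 2 and 3 and at 0.033, 0.245 and 0.2 on CS 1, 2 and 3, as log2 differences from the RA mean of the batch. On the RA_Los arrays it was at -0.017, 0.062 and 0.059, and on RA 1, 2 and 3 at -0.009, 0.022 and -0.013. Each smoke group thus had 1 array near or below the room air arrays. CS_Los 2, the low one, was the CS_Los array with the high heat shock mean and had the highest mean of the MHC class I and interferon-gamma list, 0.514, of all 20 arrays, while its 5 immunoproteasome and PA28 genes averaged 0.078.

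The gene with the smallest p in CS_Los against CS was the lid subunit Psmd13. Its log2 signal was 11.13, 11.1 and 11.09 on the CS_Los arrays and 11.73, 11.38 and 11.27 on the CS arrays. The change was -0.351 ± 0.186 (SE, 3 against 3 arrays, adjusted p = 0.866 in limma). Without CS 1 it was -0.22, and with the authors' log2 values it was -0.11. In RA_Los against RA it was Psmd5, with 5.88, 5.97 and 6.06 on the RA_Los arrays and 6.74, 6.66 and 6.25 on the RA arrays. Its change was -0.578 ± 0.195 (SE, unadjusted p = 0.0109 and adjusted p = 0.964 in limma). In CS_Los against RA_Los it was Psme2, with 8.28, 7.46 and 8.32 on the CS_Los arrays and 7.22, 7.66 and 7.64 on the RA_Los arrays. The groups overlapped through CS_Los 2, and the change was 0.514 ± 0.265 (SE, adjusted p = 0.925 in limma). Without CS_Los 2 it was 0.79 with an adjusted p of 0.441, and the lowest value without another array was 0.36.

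Whether losartan acted differently in smoke and in room air was tested by the interaction in batch 1. Of 40 genes, 0 passed and 2 had an unadjusted p under 0.05 (Psmc3ip and Psmd5, where 7.17% of all features had one), with 0% of all features called in limma. Psmc3ip had the smallest p, with a difference between the losartan effects of -0.648 ± 0.227 (SE, adjusted p = 0.624). That of Psmd5 was 0.686 ± 0.276 (adjusted p = 0.652). The RA arrays of batch 1 enter this test, RA_Los against RA and CS against RA, so the values of Psmd5 in them share those arrays.

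Whether the smoke effect differed between the batches was tested over the 14 CS and RA arrays. Of 40 genes, 0 passed and 1 had an unadjusted p under 0.05 (4.65% of all features), with 0.0157% of all features called in limma. That gene was Psmd9, a chaperone of the base, with a smoke effect of 0.17 in batch 2 and -0.34 in batch 1, a difference of 0.51 ± 0.199 (SE, adjusted p = 0.998). For Psmd8 the effect was 0.23 in each batch.

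Between the batches themselves, with smoke in the model, 23 of the 40 genes passed (57.5%), 16 higher and 7 lower in batch 2, where 59.3% of all features passed in limma (27.9% higher and 31.4% lower). The share is near that of all features. By class, 7 of 12 core genes were called higher in batch 2 and 1 lower, with a median of 0.409. Of 16 cap genes, 4 were called higher and 5 lower, with a median of 0.01. Of the 5 immunoproteasome and PA28 genes, 3 were called higher and 0 lower, with a median of 0.731. Both CS and RA lie in both batches, and the labels do not say what sets the batches apart.

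Some inducible and catalytic genes were among those with the largest batch differences. Psmb8 was higher in batch 2 by 1.52 ± 0.143, Psmb5 by 1.43 ± 0.11, Psmb7 by 1.31 ± 0.124 and Psme2 by 1.01 ± 0.122 on the log2 scale, and Psmb9 differed by -0.08 ± 0.144. The ATPase Psmc6 was lower by 1.49 ± 0.112, and Psmd6, Psme3 and Psmd11 were lower by changes of -0.87, -0.79 and -0.72. For each of these genes but Psmb9 the batch difference was several times its smoke change. With the authors' log2 values, which are not equalised for spread, 36 of 40 passed, 34 of them higher in batch 2, and 77.9% of all calls were higher there. With quantile normalization 47.1% of all calls were higher in batch 2, and with centring on the 75th percentile 28.2% were, with 14 proteasome genes higher and 7 lower. The number of genes called and its split thus depend on the scaling.

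Probes of one gene did not always give the same batch difference. Of the 14 genes with more than 1 kept probe, 6 had probes of opposite sign, and Psmc5, Psmd11 and Psmd12 had probes called in both directions. Psmb7 and Psme1 were also among the 6, with probes from -0.17 to 1.31 and from -0.02 to 1.02. For the ATPase Psmc5 the difference was -0.48 by the brighter probe and 0.86 by the other. For Psmd11, a lid subunit, it was -0.72 and 0.71, and for Psmd12 0.27 and -0.67. The smoke changes of the same probes were closer, at 0.02 and -0.01 for Psmc5, -0.1 and 0.14 for Psmd11, and 0.11 and -0.02 for Psmd12. Why probes of a gene differ between batches was not tested.

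**Figure D4:**
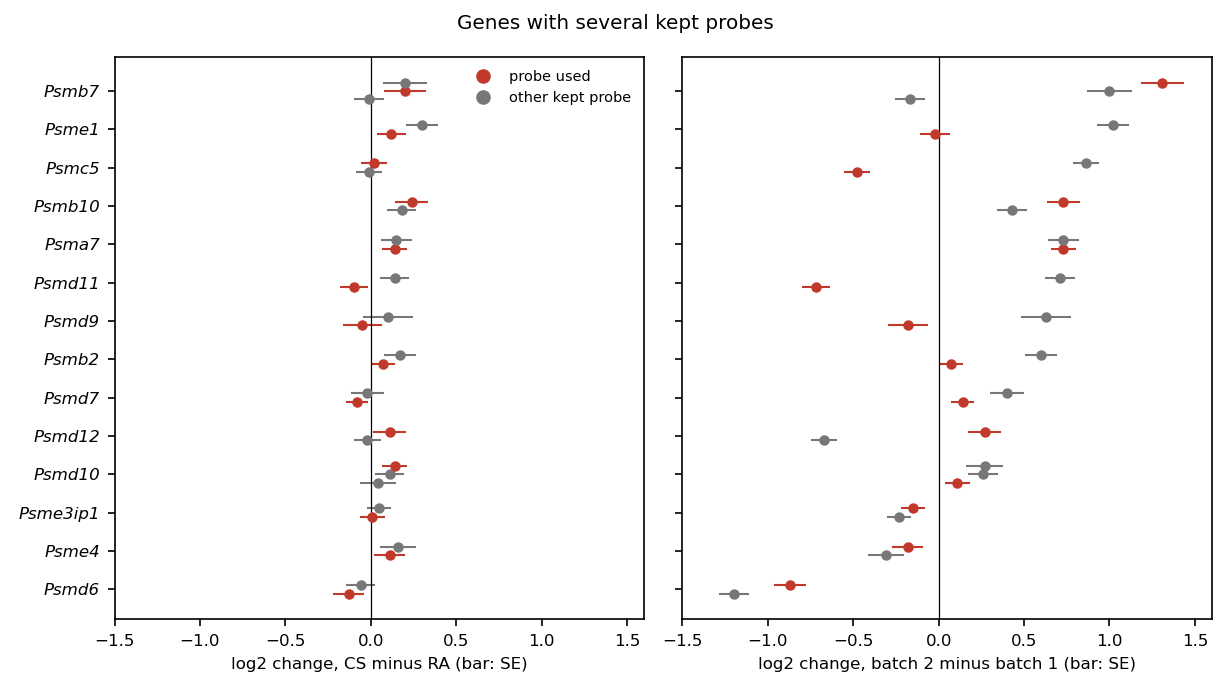
Log2 change of every kept probe of the 14 genes with more than 1, in CS against RA (left) and batch 2 against batch 1 (right), with bars for the standard error, red for the probe used and grey for the others. All smoke changes lie between -0.13 and 0.30, while the batch differences of Psmc5, Psmd11 and Psmd12 lie on opposite sides of 0.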

How the data were processed

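Total RNA of whole mouse lung was measured on 20 Illumina bead arrays, 1 per sample. The authors deposited linear probe intensities that were not normalized, per the file headers. BeadStudio is named in the submitters' processing notes, its version not given, and the labels do not say whether a background was removed. The deposited detection p-values come with each array, per the file headers, and each was paired with the signal column before it. A deposited table of log2 values by the authors equals the log2 intensity shifted to a median of 8 per array (largest difference 0.00694) and served as an alternative.

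Background was corrected with limma's nec (offset 16), followed by quantile normalization over 20 arrays and log2 (R 4.3.3, limma 3.58.1). Of 25697 probes, 17012 (66.2%) passed the detection filter (p under 0.05, 3 arrays or more). Each gene is read from its kept probe of highest mean signal, which gave 11196 named genes and 1523 unnamed probes. Smoke was tested over 14 arrays with batch as a term, and losartan in the 12 arrays of batch 1, by limma's lmFit and eBayes. The call was an adjusted p under 0.05 (Benjamini-Hochberg over all 12719 features). The statistics were also run on simulated data, in which features varied independently of each other, unlike genes of one complex. The outcome of that run is not reported here.

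Among proteasome genes any could be named, with array values for catalytic and inducible genes and those of smallest p. Other genes were up to 4 called ones of smallest p per list and a fixed handful (Tap1, Tap2, Irf1, Nfe2l1, Nfe2l2, Pomp, Ptprc, Hspa1a; some others are not reported here). Members and lists were chosen with earlier results of these data known. Psmd1 is counted with the base. The replicate numbers of the labels were not used to pair samples in the main fits. Deviations from the group means correlated by -0.344 to 0.00955 between CS and RA arrays of one number. They correlated by 0.0487 to 0.315 between RA_Los and RA arrays, and below 0 in every pair with CS_Los. Arrays of different numbers were not compared, so these values cannot show whether samples were paired. No 2 arrays were identical (highest Spearman correlation 0.978).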

Additional observations from a re-analysis of the deposited data

Results flagged for a closer look

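In groups of 4 arrays within batch 2, single values stood apart from the other 3 by Dixon's test in 6 of 80 gene and group pairs, and chance gives about 1 in 20. On CS arrays these were Psme1 on CS 4, at a log2 signal of 11.08 with the others at 10.87 to 10.9, Psmd5 on CS 7, at 6.94 with the others at 6.54 to 6.55, and Psmc3ip on CS 7, at 8.07 with the others at 7.38 to 7.47. On RA arrays they were Psmc3 on RA 5, at 9.52 with the others at 9.69 to 9.72, Psmc4 on RA 6, at 11.06 with the others at 11.26 to 11.29, and Psmd1 on RA 7, at 7.12 with the others at 7.4 to 7.46. The inducible genes on RA 7 did not reach the critical value.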

How the results depend on the processing

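In CS against RA the count of called proteasome genes, 0 in the results above, was 1 without background correction, with an offset of 50, without a probe filter, with probes detected on all arrays, with all kept probes, and with eBayes trend and robust, 2 with arrayWeights, and 0 to 2 without each array in turn. The called genes were Psmd8, Psmb10 (arrayWeights and without RA 7), Psmb1 (without RA 3) and Psme1 (all kept probes). The core median was 0.064 with centring on the 75th percentile. The median of the immunoproteasome and PA28 genes was 0.091 to 0.264 without each array in turn. The cap median was -0.014 to 0.068 over the alternatives. The 95% intervals lay within 1.5-fold for 29 of 40 genes in batch 1 alone, 30 without the batch term, and 38 to 40 without each array in turn. Batch 2 against batch 1 gave 36 called genes with the authors' log2 values and 12 with a fold minimum of 1.5. Psmd4 was at -0.01 in batch 2 alone. Of 1199 refits of single genes, 1187 kept their side of the threshold without a counted reversal, 11 passed newly and 1 reversed. A change of sign was not counted where the main change lay within 1 SE of 0 and no call was involved. Psmd9, at -0.05, thus ran from -0.34 to 0.17 over the alternatives. With the replicate number as a block, 0 genes were called in CS against RA and in each losartan comparison. The core median was 0.137 with the block too. Each number holds a CS and an RA array of the same batch, so this estimate could not differ from that of the main fit. Losartan comparisons and interactions kept 0 calls under every alternative run. A slide block was not run, since the files name no slide. Causes were not tested.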
